A study of Mus musculus with 2 samples.

Results

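MicroRNA-seq of total RNA, with a size range below 30 (unit not given), was carried out on hearts of B6NCrl mouse embryos at 16.5 days. The 10 genes described are Mir9-2, Mir9-3, Mir92b, Mir135a-1, Mir135b, Mir153, Mir137, Mir128-1, Mir128-2 and Mir138-1, grouped here as neural miRNA genes, out of 1973 listed miRNA genes. They were taken by name but chosen by their sense counts and ratios in these same libraries, which were already known, so levels and differences between libraries are descriptions and carry no test. The design has a single group of 2 biological replicates, each a pool of hearts from healthy embryos of both sexes. The pool of replicate 2 came from 41 embryos, the size of the other pool is not stated, and the labels give no treatment, transgene or control group. Sense counts at miRNA genes totalled 6473482 in replicate 1 and 5841568 in replicate 2, and levels are given as counts per 1000000 of that total (CPM).

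A miRNA is cut from a hairpin precursor whose arms can each yield a mature strand of about the length of a read, and bases 2 to 8 of that strand, the seed, lead its pairing with target mRNAs. miR-9 and miR-124 are hallmarks of neural progenitors and neurons, miR-128, miR-137, miR-138 and miR-153 are enriched in neurons and act at synapses or in neuronal maturation, and miR-92b is known from neural progenitors. miR-135a and miR-135b have been studied in the brain and also in epithelia. The heart is not a neural tissue, but it carries autonomic nerves and ganglia. Whole hearts were sequenced, so more cells of a type and more RNA per cell cannot be told apart.

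All 10 genes had a hairpin in the RefSeq table for GRCm38.p6, and their best-known mature strands are shown because the seed defines which miRNAs can act alike. Capitals mark the seed. An entry for miR-135b-5p was not in that table, and its other strand, miR-135b-3p, is given.
miR-9-5p: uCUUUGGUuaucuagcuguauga
miR-92b-3p: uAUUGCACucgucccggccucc
miR-135a-5p: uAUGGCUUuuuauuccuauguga
miR-135b-3p: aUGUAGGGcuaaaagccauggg
miR-153-3p: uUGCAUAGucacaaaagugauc
miR-137-3p: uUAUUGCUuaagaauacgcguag
miR-128-3p: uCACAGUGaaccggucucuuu
miR-138-5p: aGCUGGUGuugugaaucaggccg

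Mir9-2 and Mir9-3 yield the same miR-9 strands, and Mir128-1 and Mir128-2 the same miR-128-3p. Among mature miRNAs of the RefSeq table, the seed of miR-137-3p and that of miR-153-3p occurred in 1 gene each. The seed of miR-92b-3p occurred in 7 genes.

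Copies matter for these counts because reads matching more than 1 place were set aside on a line of their own, which held 29.5% of the reads of replicate 1 and 31.9% of those of replicate 2. Among 1005 RefSeq hairpins, every listed strand of Mir92b, Mir135b, Mir137 and Mir153 lay in 1 hairpin alone. For Mir128-1, Mir128-2, Mir138-1 and Mir135a-1, 1 strand was identical in another hairpin and the other strand was particular to the copy. For Mir9-2 and Mir9-3 both strands were identical across the 3 hairpins Mir9-1, Mir9-2 and Mir9-3. Whether a genomic match outside annotated hairpins exists was not analysed here.

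The strands particular to a copy are shown because a full-length read of them can be placed at its gene, again with the seed in capitals.
miR-128-1-5p: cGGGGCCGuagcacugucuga
miR-128-2-5p: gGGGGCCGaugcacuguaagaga
miR-138-1-3p: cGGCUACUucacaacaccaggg
miR-138-2-3p: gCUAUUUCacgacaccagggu
miR-135a-1-3p: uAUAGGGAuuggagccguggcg
miR-135a-2-3p: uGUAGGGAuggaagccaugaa

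The whole hairpins of the listed miR-9 genes are shown because only their lower-case bases, outside the mature strands in capitals, tell them apart.
Mir9-2: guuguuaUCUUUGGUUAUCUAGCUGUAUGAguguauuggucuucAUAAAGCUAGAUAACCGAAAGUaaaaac
Mir9-3: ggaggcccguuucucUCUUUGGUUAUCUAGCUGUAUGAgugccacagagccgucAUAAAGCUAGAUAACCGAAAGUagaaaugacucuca

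In Mir9-2, 28 of 53 windows of 20 bases also stood in another miR-9 hairpin, and in Mir9-3 13 of 71. The longest identical run was 33 bases between Mir9-1 and Mir9-2, and 26 between Mir9-3 and either of them. It was 23 bases between Mir128-1 and Mir128-2, and 24 between the miR-138 copies and between the miR-135a copies. Mir135a-1 and Mir135b shared a run of 14 bases at most. The Mir135b hairpin nevertheless holds the seed of miR-135a-5p, AUGGCUU, in the arm whose strand, miR-135b-5p, had no entry. The seed of miR-135b-3p shown above therefore does not set the 2 genes apart.

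**Figure D1:**
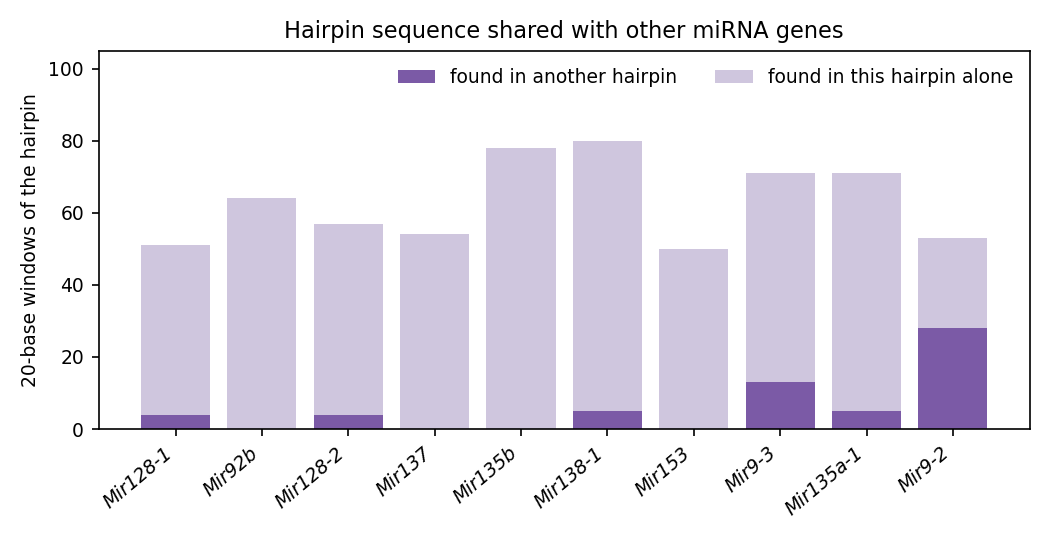
Number of 20-base windows in the hairpin of each gene (bars), split into windows also found in another of the 1005 RefSeq hairpins (dark) and windows found in that hairpin alone (light). Mir9-2 has the largest shared part, 28 of 53 windows, and Mir92b, Mir137, Mir135b and Mir153 have none.

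By sense counts, 7 of the 10 genes were detected, meaning at least 10 counts in each library. Of all listed genes, 18.5% were detected. The 10 genes together held 4757 counts in replicate 1 and 3874 in replicate 2. That is 0.0735% of sense counts (Wilson 95% interval 0.0714 to 0.0756) and 0.0663% (0.0643 to 0.0684), or 699 ± 50.7 CPM (SD, n = 2). Intervals cover counting error only, with reads taken as independent, and leave out differences between pools. PCR copies are not independent molecules, so the intervals can be too narrow even for counting error. Only 2 of the 7 detected genes, Mir128-1 and Mir92b, lay above the median level of all detected genes, 108 CPM. For scale, the heart muscle miRNAs Mir208a, Mir208b and Mir499, which lie within myosin genes, were all detected and summed to 67703 and 67120 CPM.

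The miR-128 genes were the most abundant copies. Mir128-1 (ENSMUSG00000065520.1, chr1:128202361-128202430, plus strand) lies in an intron of R3hdm1. It had 1215 counts in replicate 1 and 1712 in replicate 2, which is 188 and 293 CPM (240.4 ± 74.5, SD, n = 2), rank 138 of all listed genes. Mir128-2 (ENSMUSG00000065441.1, chr9:112118636-112118711, minus strand) lies in an intron of Arpp21, a gene known from striatal neurons. It had 493 and 785 counts, which is 76.2 and 134 CPM. Both miR-128 genes were higher in replicate 2.

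Mir128-1 exceeded Mir128-2 2.46-fold in replicate 1 (exact 95% interval 2.22 to 2.74) and 2.18-fold in replicate 2 (2.003 to 2.38). These intervals cover counting error only. Reads of miR-128-3p that matched both hairpins are in neither count, and summed counts of 264 and 427 CPM for the pair leave them out.

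Mir92b (ENSMUSG00000076255.2, chr3:89227116-89227198, minus strand) had no annotated host gene on its strand. It had 1663 counts in replicate 1 and 492 in replicate 2, which is 257 and 84.2 CPM. It was the highest of the 10 genes in replicate 1 and stood behind both miR-128 genes in replicate 2.

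Mir137 (ENSMUSG00000065569.1, chr3:118433857-118433929, plus strand) overlaps an exon of the noncoding transcript gene Gm26871. It had 458 and 417 counts, which is 70.8 and 71.4 CPM (71.1 ± 0.45, SD, n = 2). Of the 7 detected genes it had the smallest spread between libraries.

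Mir135b (ENSMUSG00000065435.1, chr1:132198088-132198184, plus strand) lies in an intron of Lemd1. It had 541 counts in replicate 1 and 106 in replicate 2, which is 83.6 and 18.1 CPM. Its level in replicate 1 was above that of Mir137 and in replicate 2 below that of Mir138-1.

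Mir138-1 (ENSMUSG00000065414.1, chr9:122682876-122682974, plus strand) overlaps an exon of the transcribed pseudogene Gm47135. It had 267 and 320 counts, which is 41.2 and 54.8 CPM. The other copy, Mir138-2 on chromosome 8, had 443 and 450 counts. Mir138-2 exceeded Mir138-1 1.66-fold (exact 95% interval 1.42 to 1.94) and 1.41-fold (1.22 to 1.63), so the copy outside the 10 genes had more counts in both libraries.

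Mir153 (ENSMUSG00000065538.1, chr12:117250817-117250885, plus strand) lies in an intron of Ptprn2, which encodes a protein of neuroendocrine secretory granules. It had 94 and 39 counts, which is 14.5 and 6.68 CPM. It was the lowest of the 7 detected genes in both libraries.

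The other 3 genes were under the count minimum. Mir9-3 (ENSMUSG00000093238.1, chr7:79505264-79505353, plus strand), in an intron of Mir9-3hg, had 16 counts in replicate 1 and 1 in replicate 2. Mir135a-1 (ENSMUSG00000065407.1, chr9:106154124-106154213, plus strand), in an intron of D030055H07Rik, had 10 and 2 counts. It overlaps the protein-coding gene Glyctk on the other strand.

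Mir9-2 (ENSMUSG00000065424.1, chr13:83738814-83738885, plus strand), in an exon of C130071C03Rik, had 0 counts in both libraries, which allows up to 3 counts, or 0.463 CPM in replicate 1 and 0.514 CPM in replicate 2. These limits apply to reads placed at Mir9-2, because reads of either miR-9 strand that match several hairpins cannot be in them. Sense counts were thus found for 9 of the 10 genes, which were chosen on their counts, and for 725 of all 1973 listed genes (36.7%). Mir9-1, another source of miR-9, was not among the listed genes. The second copy of miR-135a, Mir135a-2, had 4 and 3 counts.

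**Figure D2:**
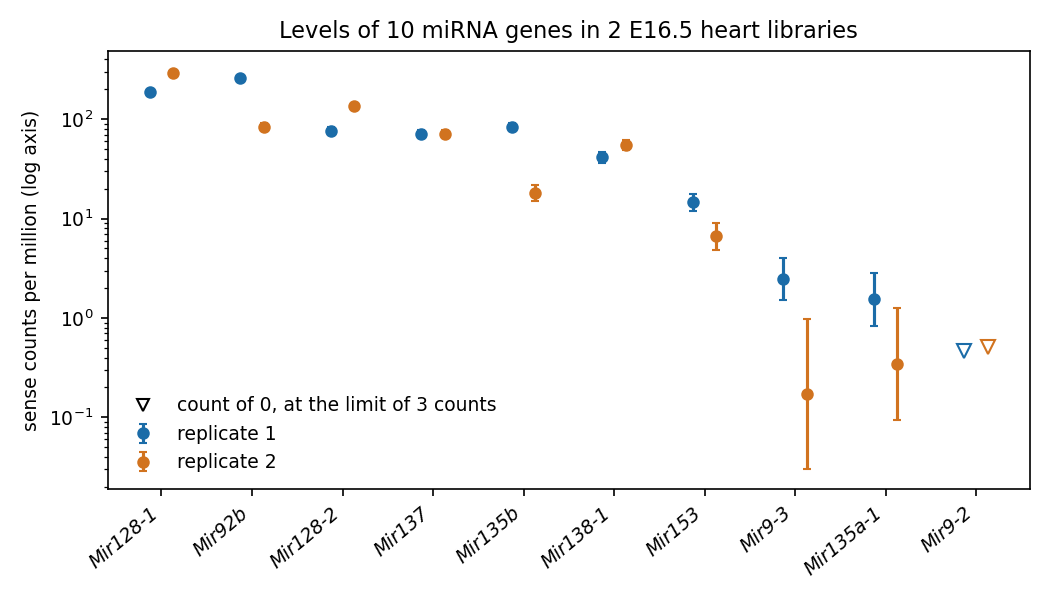
Sense CPM (log axis) of the 10 genes in replicate 1 (blue) and replicate 2 (orange) with Wilson 95% intervals for counting error. Mir135b, Mir92b and Mir153 sit lower in replicate 2, the miR-128 genes sit higher, and Mir9-2, with 0 counts, is drawn at the limit of 3 counts.

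In order of mean level, the genes ran Mir128-1, Mir92b, Mir128-2, Mir137, Mir135b, Mir138-1, Mir153, Mir9-3, Mir135a-1 and Mir9-2. The ranges over the 2 libraries overlapped for Mir128-1 and Mir92b, for Mir92b and Mir128-2, for Mir137 and Mir135b, for Mir135b and Mir138-1, and for Mir9-3 and Mir135a-1. These neighbours did not differ beyond their spread. The counts compare read numbers per gene, and whether different miRNAs were captured equally was not tested. Reads that match several hairpins are missing from the counts of the miR-9, miR-128, miR-138 and miR-135a genes. The places of those genes in this order are thus not levels of their miRNAs in the tissue.

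None of the 10 genes had a count on the opposite strand in either library. Of all listed genes, 58 (2.94%) had at least 1 such count, so a set of 10 with none is near the background. Mir153 and Mir135a-1 also had 0 although another gene is annotated on the other strand there. Within 10 kb of any of the 10 genes the only other listed miRNA gene was Gm24155, 792 bases from Mir137, with 0 counts in both libraries.

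The difference between the pools was then described gene by gene as the log2 ratio of replicate 2 over replicate 1, from counts scaled by edgeR's TMM method with 0.5 added. Of the 7 detected genes, 3 were at least 2-fold lower in replicate 2 and 0 at least 2-fold higher. Of all 365 detected genes, 1.64% were at least 2-fold lower and 1.64% at least 2-fold higher, 6 genes each way and 3.29% in all. With counts scaled to the sense total in place of TMM, 8 were lower and 5 higher, and the same 3 of the 10 genes were past 2-fold. Because the 10 genes were chosen with these ratios known, nothing is read from the excess.

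Mir135b had the lowest log2 ratio of all detected genes, at -2.17 (exact 95% interval -2.49 to -1.87), a 4.50-fold difference. Mir92b stood at place 4 from the lowest, at -1.58 (-1.73 to -1.44), and Mir153 at place 6, at -1.08 (-1.67 to -0.54). The interval of Mir153 includes differences under 2-fold. The ratio of Mir92b to Mir135b was itself 3.07 in replicate 1 (2.79 to 3.39) and 4.64 in replicate 2 (3.76 to 5.78), intervals that cover counting error only.

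The other detected genes were level or higher in replicate 2. Mir128-2 stood at 0.85 (0.68 to 1.01), Mir128-1 at 0.67 (0.56 to 0.78) and Mir138-1 at 0.44 (0.20 to 0.68). The interval of Mir137, -0.15 to 0.24 around 0.041, included 0. Mir9-3, with 1 count in replicate 2, had a log2 ratio of -3.31 with an interval from -9.21 to -1.14, and that of Mir135a-1 was -1.92 with an interval from -5.38 to 0.084.

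**Figure D3:**
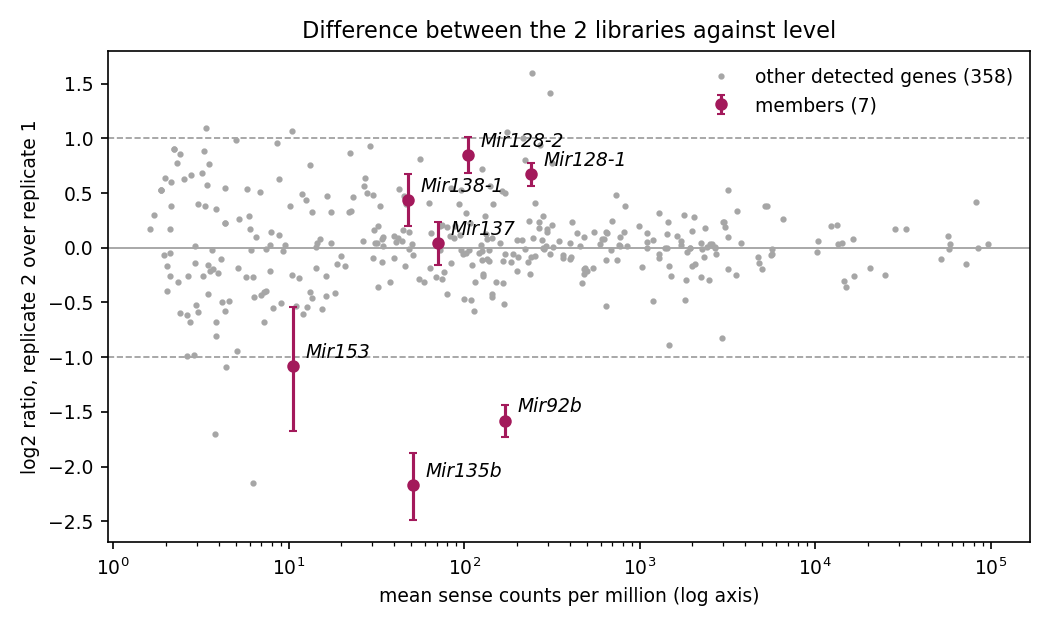
Log2 ratio of replicate 2 over replicate 1 against mean level (log axis) for 365 detected genes, with the 7 detected members in purple with exact 95% intervals for counting error and 2-fold limits dashed. Mir135b at -2.17 is the lowest point, Mir92b lies at -1.58 and Mir137 at 0.041.

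The genes were also summed by the sharing of their sequences. Those with no listed strand in another hairpin, Mir92b, Mir135b, Mir137 and Mir153, summed to 426 CPM in replicate 1 and 180.4 CPM in replicate 2. Those with 1 shared strand, Mir128-1, Mir128-2, Mir138-1 and Mir135a-1, summed to 307 and 483 CPM. Each sum follows its most abundant genes, Mir92b in the first class and the miR-128 genes in the second, and the part of shared reads in this pattern was not tested.

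The other 3 genes at least 2-fold lower in replicate 2 lay outside the 10 and under a mean of 10 CPM, and were named after their values were seen. They were Mir196a-2, with 67 and 13 counts and a log2 ratio of -2.15 (-3.17 to -1.32), close to Mir135b, Mir211, described further on, and Mir7018, with 39 and 16 counts and a log2 ratio of -1.09. Among detected genes with a mean of at least 10 CPM, the nearest to all 3 members were Mir449a, a miRNA of ciliated epithelia, at -0.89 (12377 and 5921 counts), and Mir10a, a miRNA of the Hox clusters, at -0.82 (24455 and 12256 counts). Likeness here is the distance between log2 ratios over 2 libraries and says little of a pattern.

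The seed family of Mir92b put its difference beside its relatives. The seed AUUGCAC is shared with the products of Mir92-1, Mir92-2, Mir25, Mir32, Mir363 and Mir367, miRNA genes of which several are known for promoting cell proliferation. Their mature strands are shown with the shared seed in capitals.
miR-92b-3p: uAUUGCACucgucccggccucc
miR-92a-3p: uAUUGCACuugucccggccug
miR-25-3p: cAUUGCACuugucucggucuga
miR-363-3p: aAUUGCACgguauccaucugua
miR-32-5p: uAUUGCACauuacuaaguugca

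Together the 7 genes held 2877 CPM in replicate 1 and 2894 CPM in replicate 2. Mir92b made up 8.93% of those counts in replicate 1 and 2.91% in replicate 2. Mir92-1, the most abundant, held 1962 and 1925 CPM and exceeded Mir92b 7.64-fold (exact 95% interval 7.26 to 8.04) in replicate 1 and 22.9-fold (20.9 to 25.1) in replicate 2.

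Mir363 stood at 146 and 289 CPM and Mir92-2, its neighbour on the X chromosome, at 96.2 and 156 CPM. Both were higher in replicate 2, where Mir92b was lower. Mir25 held 298 and 338 CPM, Mir32 117 and 103 CPM, and Mir367 0 counts. Mir92-1 and Mir92-2 share miR-92a-3p, so reads placed at both are missing from the counts of each and from the family sum. Both listed strands of Mir92b lay in 1 hairpin alone, so Mir92-1 and Mir92b are not counted alike. The ratios of Mir92-1 to Mir92b can thus be too low and the Mir92b shares too high, and the exact intervals do not cover this. Counts are per gene and include both strands of a hairpin.

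**Figure D4:**
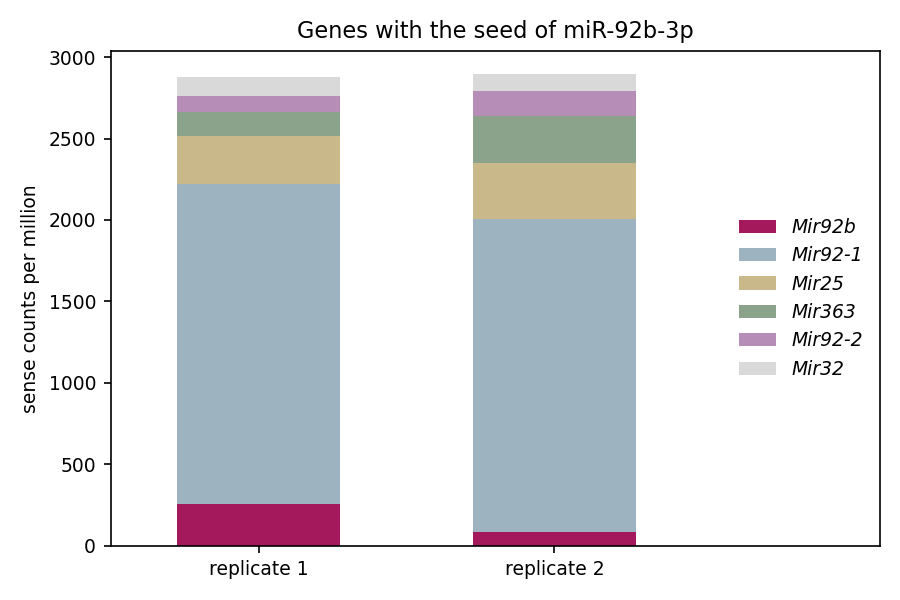
Sense CPM of the genes whose mature strand shares the seed of miR-92b-3p, stacked for each library. The stacks reach 2877 and 2894 CPM, and the Mir92b part is 257 CPM in replicate 1 and 84.2 CPM in replicate 2.

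Other neural miRNA genes were read alongside. Of 22 on the list, 20 were listed in the files and 14 were detected, against 18.5% of all listed genes. The list summed to 854 and 815 CPM, mostly from Mir134 and Mir132. Whether these counts came from neural cells was not tested, and a place on the list does not make a gene particular to such cells. The highest were Mir134, a dendritic miRNA, at 402 ± 25.1 CPM, Mir132, an activity-induced miRNA, at 199.6 ± 23.2 CPM, and Mir138-2 at 72.7 ± 6.08 CPM (SD, n = 2). Of the 14, 8 had log2 ratios above 0, 6 below 0 and 0 were past 2-fold, with a median of 0.036 and a range from -0.41 to 0.86. For all 365 detected genes the median was 0.020, with 193 above 0, 172 below 0 and 3.29% past 2-fold.

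The miR-124 copies, defining for neurons, were at or near 0. Mir124a-1 and Mir124a-2 had 1 count each in replicate 1 and 0 in replicate 2, and Mir124a-3 had 0 in both. miR-124 comes from several loci, and the sequence these copies share was not analysed here, so whether reads were set aside is not known. The glial miRNA genes Mir338 and Mir219a-1 had 139 and 192 counts and 93 and 85 counts. Neither was past 2-fold, and Mir338 stood at 0.64. The other listed copy of miR-219a, Mir219a-2, was under the count minimum with 19 and 9 counts. Its log2 ratio was -0.87, with an interval from -2.23 to 0.31. miR-219a-5p is identical in the hairpins of Mir219a-1 and Mir219a-2, so reads of it that match both are missing from their counts.

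Epithelial and neural crest miRNA genes were summed in the same way. The 11 genes grouped here as epithelial were Mir200a, Mir200b, Mir200c, Mir141, Mir429, Mir203, Mir205, Mir375, Mir96, Mir182 and Mir183. All 11 were detected, against 18.5% of all listed genes, and their sum was 7888 CPM in replicate 1 and 6583 CPM in replicate 2. Of these, 8 had log2 ratios below 0 and 3 above, and 0 were past 2-fold. Of all 365 detected genes, 172 were below 0, 193 above 0 and 3.29% past 2-fold. Mir200a, Mir200b and Mir429 lie together on chromosome 4 and Mir200c and Mir141 on chromosome 6. Mir96 and Mir183, also below 0, lie together elsewhere on chromosome 6 with Mir182, which stood at 0.14. The 8 are thus not independent. Mir429 stood at -0.47, Mir200c at -0.49 and Mir375 at 0.020. Their part in the levels of Mir135b, Mir92b and Mir153 was not tested.

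Of the genes listed for neural crest and pigment cells, Mir211 had 38 and 10 counts, a log2 ratio of -1.70 (-2.92 to -0.72), and Mir204 had 576 and 462 counts, at -0.14 (-0.32 to 0.037). Their part was likewise not tested. The heart muscle sum differed 1.01-fold between the libraries, with Mir208b at -0.013, Mir499 at 0.038 and Mir208a at 0.26.

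**Figure D5:**
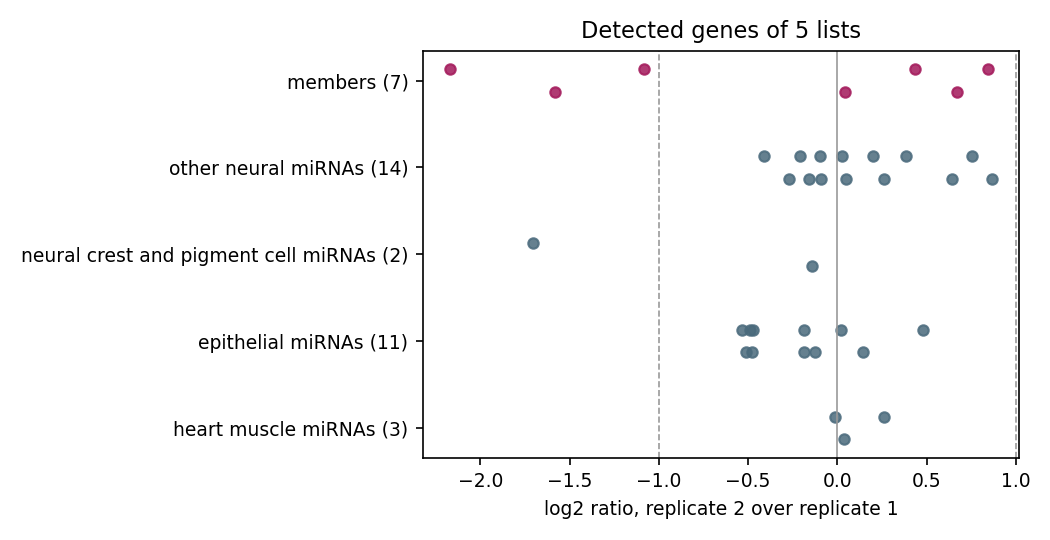
Log2 ratio of replicate 2 over replicate 1 for every detected gene (points) of 5 lists, with 2-fold limits dashed. The 7 detected members reach from -2.17 to 0.85, the 14 other neural genes from -0.41 to 0.86 and the 11 epithelial genes from -0.53 to 0.48.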

How the data were processed

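The deposited tables hold raw counts of reads per miRNA gene for each library, with columns for either strand and for each strand. Per the labels in the files deposited beside each library's counts, the authors used build mm10 and annotation M4. For the aligner, counter and trimming: not given in the sources used here. Column 3 of each table, whose gene total exceeds that of column 4, was used as sense. Lines that name no gene (unmapped reads at 22.4% and 17.2%, reads outside genes at 2.99% and 2.66%, reads with several matches, and 0 ambiguous reads) stayed out of totals and tests.

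Symbols, positions and hosts came from GENCODE M21 on the same build, joined by Ensembl identifier with version numbers removed (1894 of 1973 genes). All 10 genes matched, 6 with the same version. Sequences came from RefSeq (GRCm38.p6), searched for shared 20-base windows and identical mature strands. Scaling used edgeR 4.0.16 (TMM) and, as an alternative, DESeq2 1.42.0 in R 4.3.3. With 1 group there is no contrast for a quasi-likelihood test, so no p-value is given. The ratio calculation was tested on simulated counts with known fold differences and counting error only. That test had no differences between pools and no PCR copies, so it says nothing of either. Intervals used scipy 1.17.1 (Wilson for shares, exact Clopper-Pearson for ratios). The replicates are labelled biological.

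The genes and lists were chosen with earlier results of these data known. Named genes were the 10 members, their copies, the 3 highest of each other list, and the 2 detected genes of at least 10 CPM nearest in ratio to the 3 members with the largest ratio. Members of the miR-92b seed family, the miR-124 copies, Mir338, Mir219a-1, Mir219a-2, Mir196a-2, Mir7018, Gm24155 and the rest of the epithelial list were named in addition, after their values were seen.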

Additional observations from a re-analysis of the deposited data

How the results depend on the processing

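The summed level of the 10 genes, 699 CPM, was 307 counts per 1000000 when all reads of the tables were the denominator, and 459 CPM without Mir128-1, the most abundant; both follow from the construction of those settings. It ranged from 663 CPM without replicate 1 to 735 CPM without replicate 2. Without replicate 1 the number detected was 7 and without replicate 2 it was 9. With no filter on low counts, 5 members were past 2-fold in place of 3, adding Mir9-3 and Mir135a-1, and 228 of all 725 genes with a count were past 2-fold in place of 12 of 365. Such ratios rest on few counts. Of 36 other log2 ratios of members under another scaling, strand column or added count, 36 stayed within the counting interval. That was largely set by construction. The members had no counts on the opposite strand, and another scaling moved all their ratios by nearly the same small amount. No paired analysis was possible because the design has 1 group. Mir9-2, Mir9-3 and Mir135a-1 had at most 16 counts in a library, so depth limits what can be said of reads placed at them. Reads that match several hairpins are left out of their counts at any depth.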
